A study of Mus musculus with 2 samples.

Results

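Cd36, Lepr and Rhoj are 3 genes that the blood vessel lining of the liver transcribes and that were also counted in bile duct cells, at different levels in the 2 libraries of the series. They are 3 of the 55415 genes of the deposited table. They were chosen from measured values of these libraries, so their differences between libraries are given as a description, with no test.

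The samples were biliary epithelial cells from mouse liver, which line the bile ducts, in 1 library labelled Sox9cKO and 1 labelled Sox9con. The series describes the first as deficient in Sox9, a transcription factor of bile duct cells, and the second as its control. The labels give no Cre driver, no deleted part of the gene, and no strain, age or number of animals. With 1 library a group, every interval below is a 95% interval that covers counting error only, and wells and genotypes cannot be told apart.

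CD36 is a membrane receptor that takes up long-chain fatty acids and binds thrombospondins, and it is well known in capillary endothelium, fat cells and macrophages. LEPR is the receptor for leptin, and its long form signals through the kinase JAK2 and the factor STAT3. RHOJ is a small GTPase of the CDC42 branch, known in endothelium, where it acts in vessel growth and in signalling below the semaphorin receptor plexin D1. In liver, all 3 can be found in endothelial cells, and RNA that leaks from such cells can enter the counts of other cells.

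Sox9 belongs to a family of factors that bind short motifs, so the starts of these genes are shown as sequence, with matches to 2 such motifs in capitals. The 250 bases before each RefSeq start were read on the gene's strand in GRCm38.p6, while the counts were made on GRCm39. AACAAT and AACAAAG were searched on both strands. Cd36 lies on the minus strand at chr5:17835897-17836146, Lepr on the plus strand at chr4:101717157-101717406, and Rhoj on the plus strand at chr12:75308063-75308312.
Cd36: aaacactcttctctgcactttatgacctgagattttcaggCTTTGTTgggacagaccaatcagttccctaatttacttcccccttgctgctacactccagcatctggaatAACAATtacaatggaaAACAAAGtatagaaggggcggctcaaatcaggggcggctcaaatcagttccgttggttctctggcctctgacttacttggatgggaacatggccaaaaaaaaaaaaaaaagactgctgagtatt
Lepr: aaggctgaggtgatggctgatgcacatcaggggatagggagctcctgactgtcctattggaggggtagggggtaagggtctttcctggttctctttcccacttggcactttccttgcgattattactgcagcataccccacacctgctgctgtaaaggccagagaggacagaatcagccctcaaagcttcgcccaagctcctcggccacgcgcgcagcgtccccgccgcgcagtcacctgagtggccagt
Rhoj: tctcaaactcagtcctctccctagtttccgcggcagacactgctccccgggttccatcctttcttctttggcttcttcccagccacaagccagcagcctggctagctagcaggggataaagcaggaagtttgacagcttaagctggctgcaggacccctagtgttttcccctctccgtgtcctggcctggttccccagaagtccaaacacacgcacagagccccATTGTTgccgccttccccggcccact

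The Cd36 window held 1 AACAAT, at 140 to 135 bases before the start, and 2 AACAAAG. The Rhoj window held 1 AACAAT on the other strand, at 26 to 21 bases before the start. Neither motif was in the Lepr window, nor in that of its second RefSeq start. AACAAT was in 9.42% and AACAAAG in 5.03% of all 32851 promoter windows of the same length, and 13.8% held either. These matches describe letters and not bound sites.

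The cells were sorted into classes by marker genes. After a filter on depth, 2591 cells of Sox9cKO and 3370 of Sox9con were called biliary, with 14306239 and 12158928 UMIs (counted transcript molecules). Cells with 5 or more UMIs over Ptprb, Stab2, Kdr and Flt1 were called endothelial-like, 88 and 120 in the same order. Biliary cells had a median of 5126 and 3224 UMIs, and endothelial-like cells of 2718 and 2419. The libraries shared 0 cell barcodes. The biliary class was set in part by at least 3 UMIs over 15 biliary markers, so their level there is no separate check. Of these markers, 14 reached 50 CPM (UMIs of a gene scaled to a common total) in the biliary cells of both libraries. None of 18 endothelial genes outside the gate did. In endothelial-like cells all 18 reached it, and 13 and 11 biliary markers did as well, led by Krt18 and Spp1, level with each other, in Sox9cKO and by Spp1 in Sox9con. Sox9 stood at 122 CPM in the biliary cells labelled Sox9cKO and at 146 in those labelled Sox9con. Gene sums cannot show a deleted exon, so these values do not check the labels, and the libraries are named by their labels throughout. Transcripts of Y-linked Ddx3y were counted in both, at 167 and 208 CPM, and those of X-linked Xist at 8.53 and 13.6 CPM.

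Cd36 was high in the biliary cells of Sox9cKO and low in those of Sox9con. By well of the first barcoding round, its level was 82.2 CPM in A11, 71.2 in A12, 57.7 in B1, 69.1 in B2 and 55.5 in B3, all of Sox9cKO. In Sox9con it was 2.31 CPM in D9, 3.22 in D10, 3.76 in D11 and 1.99 in D12. The wells of the libraries did not overlap, and Cd36 was higher in all 20 pairs of wells. Summed over the cells, 954 UMIs gave 66.7 CPM (62.5 to 71.1) and 33 UMIs gave 2.71 CPM (1.87 to 3.81). The log2 ratio of Sox9cKO over Sox9con was 4.60 (4.12 to 5.17), about 24.2-fold. Each of the 8 sublibraries, which hold cells of both libraries, had the higher level in the Sox9cKO cells.

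Of 9316 genes with at least 200 UMIs over the biliary cells of both libraries, 202 (2.17%) were at least 2-fold higher in Sox9cKO and 167 (1.79%) at least 2-fold lower. Cd36 and Lepr are among the first and Rhoj is among the second, which the choice of these genes fixed. For scale, 6 genes had a higher ratio than Cd36, 22 a higher one than Lepr, and 7 a lower one than Rhoj. With DESeq2 size factors the counts were 276 and 93, so that the higher genes made up 74.8% of the genes apart and not 54.7%. The median log2 ratio of all tested genes moved by 0.15 with that scaling and by 0.10 with TMM.

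**Figure D1:**
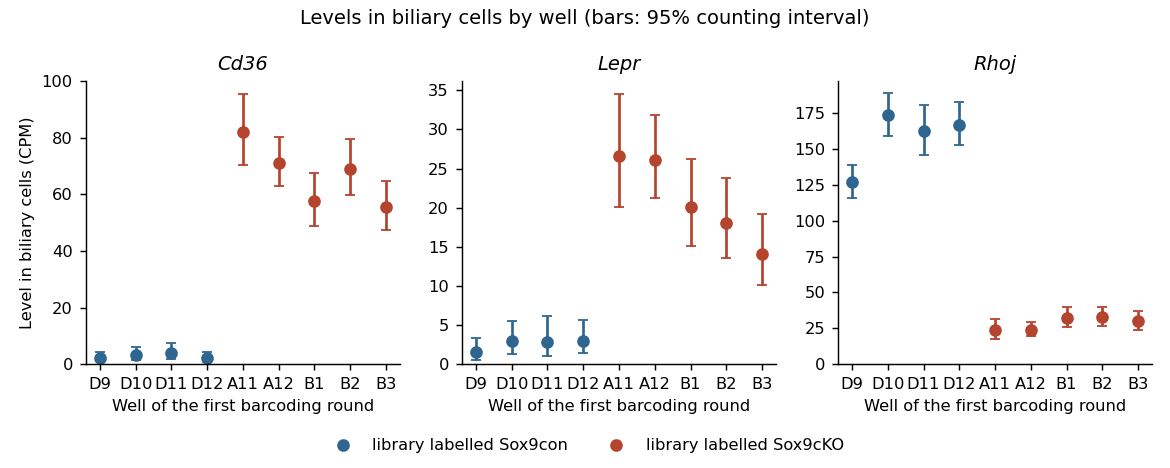
Level of each gene in biliary cells (CPM, vertical axis from 0) in each well of the first barcoding round (horizontal axis), blue for the library labelled Sox9con and red for Sox9cKO. Points are sums over the cells of a well and bars are 95% counting intervals. For Cd36 the Sox9cKO wells lie at 55.5 to 82.2 and the Sox9con wells at 1.99 to 3.76. For Rhoj the order is the opposite, with 127 to 174 in the Sox9con wells.

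The difference was also there at equal depth. With each cell thinned to 2000 UMIs, Cd36 was counted in 244 of 2453 biliary cells of Sox9cKO, or 9.95% (8.79 to 11.2). It was counted in 9 of 2803 of Sox9con, or 0.321% (0.147 to 0.609). Thinning left out 138 and 567 shallower cells. Without thinning the shares were 20.8% and 0.890%. Of the 539 biliary cells of Sox9cKO with any Cd36 UMI, 228 held 2 or more and 1 cell held 10. In Sox9con 3 of 30 such cells held 2, and none held more.

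The endothelial-like cells of both libraries transcribed Cd36 at levels whose intervals overlap. They held 149 CPM (109 to 198) in Sox9cKO and 136 (102 to 178) in Sox9con. The log2 ratio was 0.13 (-0.47 to 0.72). The wells spread from 44.9 to 309 CPM in the first and from 103 to 154 in the second, so they overlapped, with 12 of 20 pairs higher in Sox9cKO. At equal depth 19.4% (12 of 62) and 23.7% (18 of 76) of these cells had a UMI. Cd36 was thus 5.61 log2 units higher in endothelial-like than in biliary cells of Sox9con, and 1.16 higher (0.70 to 1.58) in Sox9cKO. Being at least 2-fold higher in endothelial-like cells was common, at 22.1% of 3977 genes in Sox9cKO and 23.7% of 4704 in Sox9con, and all 3 genes are in both counts.

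**Figure D2:**
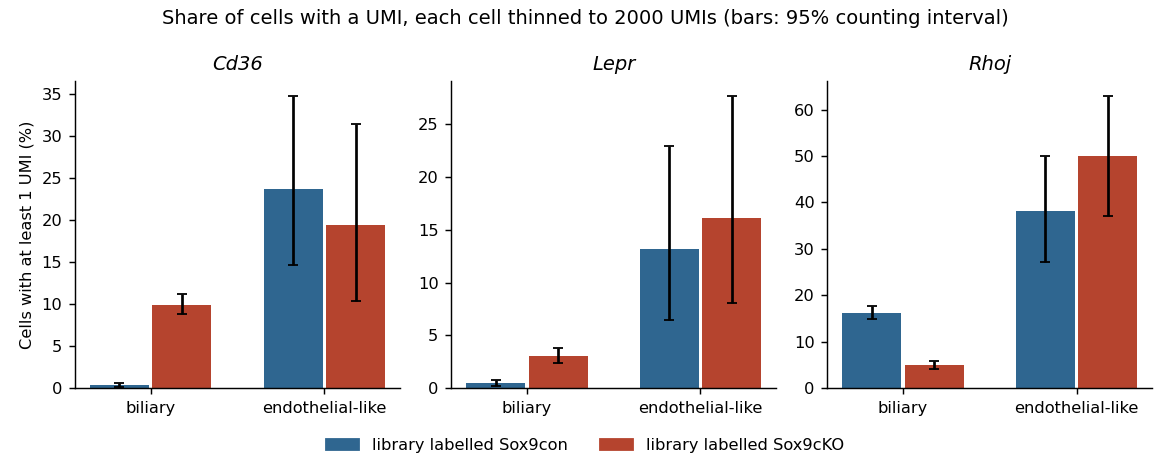
Share of cells with at least 1 UMI (%, vertical axis from 0) in biliary and endothelial-like cells, each cell thinned to 2000 UMIs, blue for Sox9con and red for Sox9cKO. Bars show the share and lines the 95% binomial interval. Biliary shares of Cd36 are 9.95% against 0.321% and those of Rhoj 4.97% against 16.2%, while the intervals of the endothelial-like shares overlap.

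RNA from endothelial cells can be measured against genes that biliary cells should lack. Over the 18 endothelial reference genes, the biliary level was a median of 0.330% of the endothelial-like level in Sox9cKO and 0.305% in Sox9con. The highest were Gpr182, a receptor of sinusoidal endothelium, at 4.48% in the first and Pecam1 at 1.35% in the second. The same share for Cd36 was 44.9% in Sox9cKO and 1.99% in Sox9con. With the mix of endothelial RNA seen in the reference genes, 8.90 Cd36 UMIs would reach the biliary cells of Sox9cKO, or 0.933% of the 954 counted. In Sox9con it would bring 7.25 of 33, or 22%. The share is an estimate from sums, and the few control UMIs are the ones it touches most.

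In Sox9cKO, biliary cells with 0 UMIs of the 4 gate genes held Cd36 at 68.5 CPM (64.1 to 73.0), and those with 1 to 4 gate UMIs at 38.7 (26.6 to 54.4). The level was thus not higher in cells with gate UMIs. In Sox9con all 33 UMIs were in cells with 0 gate UMIs, at 2.84 CPM. Only 134 cells (3.98%) had 1 to 4 gate UMIs there. Their interval, up to 6.90 CPM, includes that level. In the other direction, biliary RNA would bring 6.36 of the 47 Cd36 UMIs of the endothelial-like cells of Sox9cKO, or 13.5%. Those endothelial-like cells with under 3 biliary marker UMIs held Cd36 at 206 CPM, and those with 3 or more at 89.9.

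**Figure D3:**
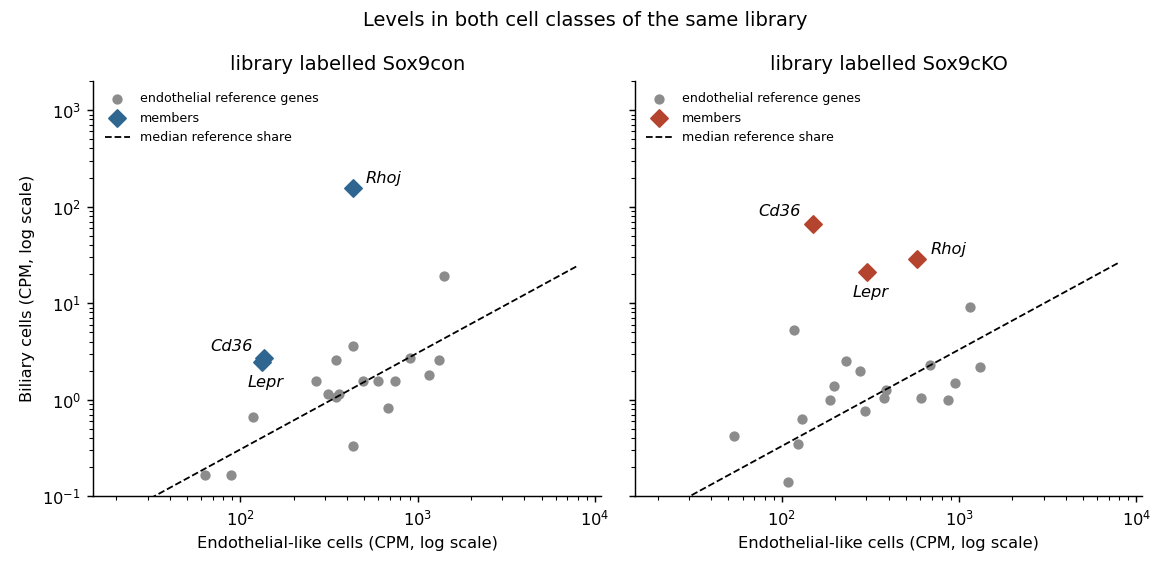
Level in biliary cells (CPM, log scale) against level in endothelial-like cells (CPM, log scale) of the same library, Sox9con on the left and Sox9cKO on the right. Grey points are the 18 endothelial reference genes, diamonds are Cd36, Lepr and Rhoj, and the dashed line is the median reference share, 0.305% and 0.330%. Rhoj lies far above the line in Sox9con and Cd36 in Sox9cKO.

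The biliary cells with a Cd36 UMI in Sox9cKO, at equal depth, were rich in transcripts of plasma proteins. Of these 244 cells 69.3% (63.1 to 75.0) had a UMI of the plasma protein list, Fga, Fgb, Vtn, Gc, Hp, Hpx and Plg, against 33.0% (31.0 to 35.0) of the other 2209. By well the shares were 65.5 to 76.3% in cells with Cd36 and 29.3 to 36.7% in the others, so that the wells did not overlap. The inflammatory group of Ptgs2, a prostaglandin synthase, Csf3, a granulocyte growth factor, and the phosphate carrier Slc34a2 was in 34.8% against 16.8%, and higher in all 5 wells. The group Ltf, Muc4 and Anxa10 was in 3.28% against 11.7%, and lower in all 5 wells. Ly6a, Cd14 and Cxcl5 were in 67.2% (60.9 to 73.1) against 55.0%, higher in all 5. Car4, Msln and Tff2 were in 20.5% (15.6 to 26.1) against 27.5%, lower in 4 of 5. Muc6 and Bcl11a were in 0.820% (0.0994 to 2.93) against 3.76%, lower in 4 of 5. For Dnah12, Mmp25 and Scin (2.46% against 3.49%) the interval includes the share of the others. The same holds for Adgrv1, Ctnna2 and Igsf11 (5.74% against 4.84%). These groups were described earlier in the same libraries, and the cells were set apart by Cd36 itself, so no test is given.

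Fibrinogen genes were among the single genes that marked these cells. Of 8376 genes with at least 50 UMIs in thinned cells, 145 were at least 2-fold higher with Cd36 and 419 at least 2-fold lower. The named genes are the extremes of these, and their intervals make no allowance for that choice. The 10 with the highest ratio were Rbfox1, Ccl20, Lpl, Fut9, Spock3, Fga, Sntb1, Csf3, Fgg and Elovl2. Fga, the alpha chain of fibrinogen, was in 24.6% of cells with Cd36 and in 8.01% of the others, and its log2 ratio was 1.66 (1.28 to 2.04). Fgg, the gamma chain, was in 20.9% against 7.29%. Lpl, the lipase that frees fatty acids from lipoproteins, was in 7.38% against 2.67%, and the chemokine Ccl20 in 6.56% against 2.81%. Elovl2, which lengthens polyunsaturated fatty acids, was in 6.97% against 2.67%. All 10 held their direction in cells with 2 or more Cd36 UMIs at full counts, where Rbfox1 went from 1.97 to 1.22, Ccl20 from 1.82 to 1.05 and Csf3 from 1.61 to 1.18. The 5 with the lowest ratio, Slc9a4, Ptprr, Areg, Capn13 and Slc22a4, were in 0 of the 244 cells, which allows a share of up to 1.23%. In the other cells they were in 3.08 to 4.48%.

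Markers of other cells and depth were set beside these shares. The cells with Cd36 had a median of 5657 UMIs before thinning, and the others 5259. A gate UMI was in 0.820% of them against 2.63%, and the endothelial reference genes summed to 47.1 against 36.4 CPM. Hepatocyte markers summed to 1930.3 against 1077 CPM. The part of hepatocyte RNA in the pattern was not tested. Immune markers, of interest since macrophages use Cd36, summed to 34.8 against 33.7 CPM. The biliary class allowed under 5 UMIs a cell over these same markers, which limits their sums in advance. Over all biliary cells 5 of 10 immune markers were counted in Sox9cKO, summing to 36.6 CPM (wells 32.8 to 46.9), and 7 of 10 in Sox9con, summing to 27.5 CPM (wells 21.5 to 38.1). The macrophage gene Csf1r led in both, C1qa, Clec4f and Cd3e were at 0 in both, and C1qb and C1qc were at 0 in Sox9cKO alone. Sox9 itself was in 20.1% against 19.7%. Cells with a plasma protein UMI made up 36.6% of the thinned biliary cells of Sox9cKO and 4.53% of those of Sox9con. Of these cells, 18.8% (169 of 898) and 0 of 127 held Cd36. Of the cells without such a UMI, 4.82% (75 of 1555) in Sox9cKO and 0.336% (9 of 2676) in Sox9con held it. A cell without a UMI at this depth can still hold these transcripts. The part of such cells in the Cd36 difference was not tested.

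Among 18 other tested genes of fatty acid uptake and handling, 2 were at least 2-fold higher in the biliary cells of Sox9cKO and 0 were 2-fold or more lower, beside 2.17% and 1.79% of all tested genes. Their median log2 ratio was -0.046, beside -0.070 for all tested genes. Lpl stood at 16.8 and 6.99 CPM, a log2 ratio of 1.26 (0.91 to 1.64), and the fatty acid binding protein gene Fabp5 at 14.0 and 6.0 CPM, a ratio of 1.21 (0.83 to 1.63), both higher in 20 of 20 pairs of wells. Thbs1, whose product thrombospondin 1 is a ligand of CD36, had 739 and 459 CPM (log2 ratio 0.69). Acsl4, which activates fatty acids, had 194 and 139.7 CPM (0.48). Pparg, a factor that drives Cd36 in other tissues, had 62.8 and 75.7 CPM (-0.27). Fabp2 was the lowest of the list at -0.75. The counts of genes apart were the same with TMM and DESeq2 factors.

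**Figure D4:**
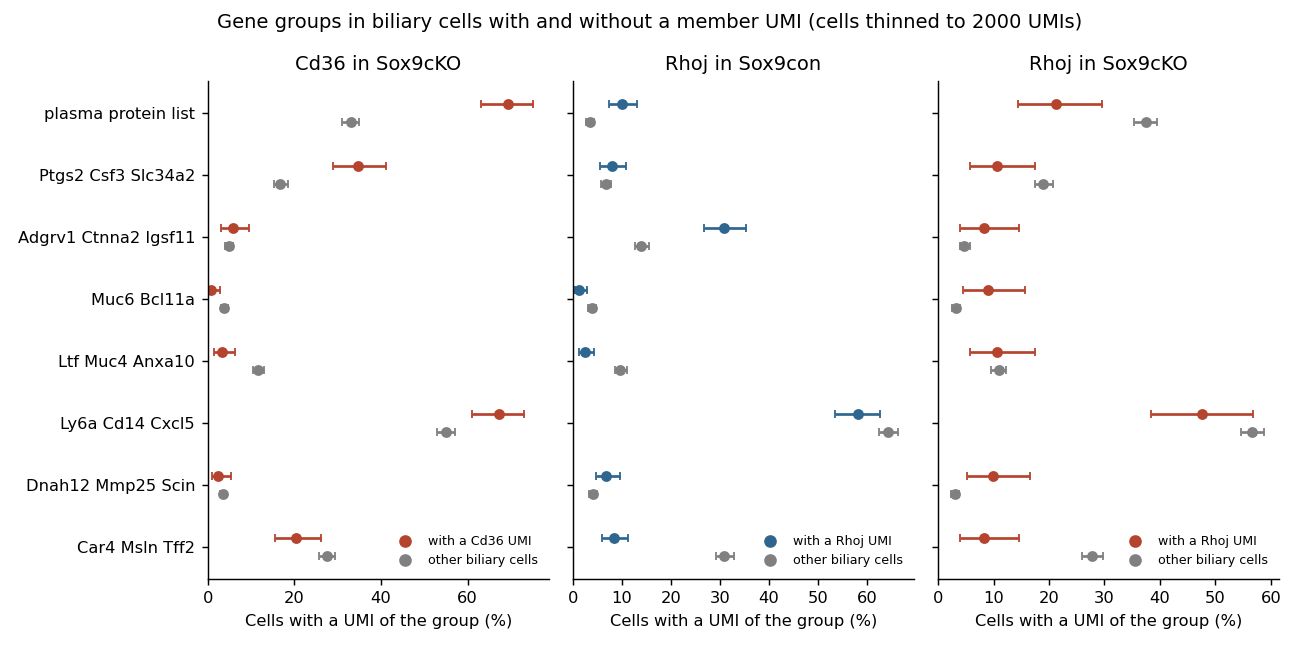
Share of biliary cells (%, horizontal axis from 0) with a UMI of each gene group (rows), for cells with a UMI of the named gene (colour) and the other cells of that library (grey), each thinned to 2000 UMIs; lines are 95% binomial intervals. The plasma protein list is Fga, Fgb, Vtn, Gc, Hp, Hpx and Plg. It is at 69.3% with Cd36 in Sox9cKO, and for Rhoj it is above the other cells in Sox9con (9.93% against 3.49%) and below them in Sox9cKO (21.3% against 37.4%).

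Lepr was also higher in the biliary cells of Sox9cKO. Its level was 26.6 CPM in A11, 26.1 in A12, 20.1 in B1, 18.1 in B2 and 14.1 in B3, against 1.54 in D9, 2.89 in D10, 2.82 in D11 and 2.98 in D12. The wells did not overlap, and all 20 pairs and all 8 sublibraries were higher in Sox9cKO. The sums were 301 and 30 UMIs, 21.0 CPM (18.7 to 23.6) and 2.47 CPM (1.66 to 3.52), with a log2 ratio of 3.07 (2.55 to 3.68). At equal depth 3.06% (75 of 2453) and 0.464% (13 of 2803) of the cells had a UMI, and without thinning 6.45% and 0.742%. In D9 no thinned cell of 784 had one, which allows a share of up to 0.383% at 3 counts. The exact interval reaches 0.469%, which includes the 0.464% of the library. One biliary cell of well A11 held 15 of the 301 UMIs.

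In endothelial-like cells Lepr was carried by few cells. The sums were 95 UMIs (300.4 CPM) in Sox9cKO and 51 (133 CPM) in Sox9con, and the log2 ratio was 1.16 (0.66 to 1.69). One cell of well A12, with 15536 UMIs in all, held 31 of the 95, and one cell of D9, with 44473, held 16 of the 51. Without these cells the levels were 213 and 104 CPM. The wells ranged from 45.2 to 888 CPM and from 14.7 to 179.9 CPM, so they overlapped, and 16 of 20 pairs were higher in Sox9cKO. The share of cells at equal depth was 16.1% (10 of 62) and 13.2% (10 of 76), with overlapping intervals. Mesenchymal markers, of which 7 of 10 and 6 of 10 were counted in these cells, summed to 187 CPM (wells 0 to 553) and 212 CPM (wells 14.0 to 804). Collagen genes led in both, Des and Ngfr were at 0 in both, Lrat was at 0 in Sox9cKO alone, and Pdgfra and Pdgfrb were at 0 in Sox9con alone. The part of such cells in the Lepr level was not tested. Lepr was 3.83 log2 units higher in endothelial-like than in biliary cells of Sox9cKO and 5.71 higher in Sox9con.

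The biliary level of Lepr was 7.0% of the endothelial-like level in Sox9cKO and 1.85% in Sox9con, each above the highest reference gene, Gpr182 and Pecam1. Endothelial RNA would bring 18 of 301 UMIs (5.98%) and 7.11 of 30 (23.7%). Biliary cells with 0 gate UMIs held 21.9 CPM in Sox9cKO, and those with 1 to 4 held 7.04 (2.58 to 15.3). In Sox9con the values were 2.24 (1.46 to 3.28) and 7.48 (2.04 to 19.1). There, 4 of the 25 biliary cells with a Lepr UMI (16.0%) also had a gate UMI, against 3.89% of the others.

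In Sox9cKO none of the 8 described gene groups differed beyond its interval between biliary cells with and without Lepr. Of the 75 cells with it, 34.7% (24.0 to 46.5) had a plasma protein UMI against 36.7% of the others, and 26.7% against 26.8% had one of Car4, Msln and Tff2. Cd36 was in 13.3% (6.58 to 23.2) against 9.84%. Of only 13 such cells in Sox9con, 8 had a UMI of Car4, Msln and Tff2 (61.5%, 31.6 to 86.1), against 27.1% of the others. Mesenchymal markers summed to 26.7 CPM in the Sox9cKO cells with Lepr and to 5.68 in the others, endothelial reference genes to 33.3 and 37.6, and hepatocyte markers to 1273 and 1159. The biliary class allowed under 5 UMIs a cell over the mesenchymal markers, which limits their sums in advance. All biliary cells of Sox9cKO held 71 UMIs of them, so these sums rest on few UMIs and carry no interval. The part of these other cell types in the Lepr counts was not tested. Of 8376 genes tested, 291 were at least 2-fold higher in cells with Lepr and 1088 at least 2-fold lower. The genes with the highest ratio were Vrk3, Steap4, Tmem128, Cdk5rap2, Gpatch1, Cep128, Fut9, Rpap3, Mcm7 and Gm20559, each on 6 to 10 UMIs in the cells with Lepr. Those with the lowest were Igfbp5, Ube2d1, Brpf1, Atp6v0b and Pmpca, in 0 of 75 cells, which allows up to 4.0%. Of these 15 genes Vrk3, Gpatch1, Cep128 and Brpf1 turned around in cells with 2 or more Lepr UMIs at full counts, so the list describes few UMIs. Of the markers named for Cd36, 1 of 10, the fucosyltransferase gene Fut9, is also on this list. Both lists are 10 names from 8376 tested genes, and the sharing of 1 was not tested.

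None of 14 other tested genes of leptin receptor signalling was 2-fold apart in biliary cells in either direction. With 2.17% and 1.79% of all tested genes apart, a count of 0 among 14 does not stand out. Their median log2 ratio was -0.073. Leprot, whose product limits the level of the receptor at the cell surface, stood at 28.7 and 27.2 CPM, with a log2 ratio of 0.074 (-0.14 to 0.29). Jak2 had 129 and 133 CPM. Stat3 had 276 and 324 CPM, a ratio of -0.23, and the feedback inhibitor Socs3 had 15.1 and 16.1 CPM. The shared signalling receptor of interleukin 6, Il6st, had the highest ratio at 0.22, and Irs2 the lowest at -0.35. Leptin itself was at 1 UMI in Sox9cKO and 0 in Sox9con.

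**Figure D5:**
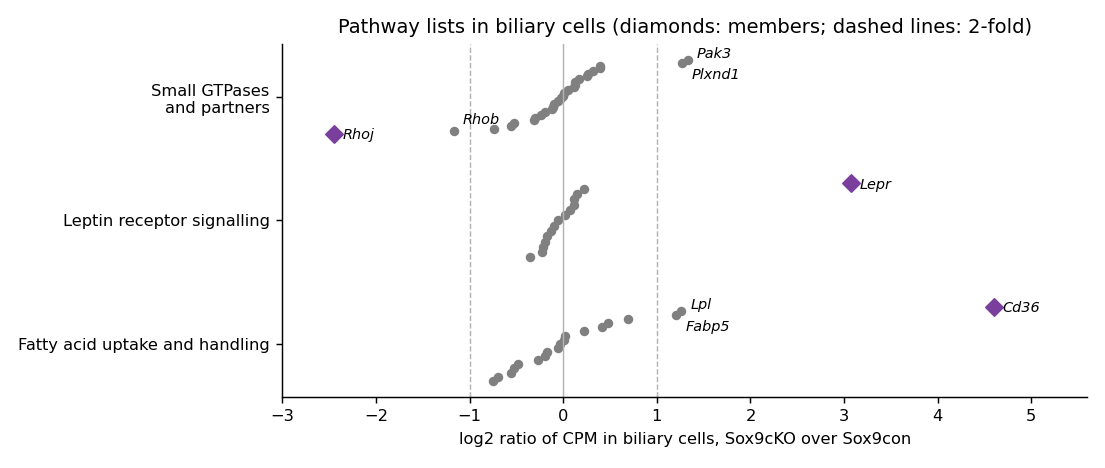
log2 ratio of CPM in biliary cells, Sox9cKO over Sox9con (horizontal axis), for each tested gene of 3 lists (rows, spread vertically by rank). Diamonds are Cd36, Lepr and Rhoj, grey points the other genes, and dashed lines mark 2-fold. Outside the diamonds Lpl, Fabp5, Pak3 and Plxnd1 lie above 2-fold and Rhob lies below it.

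Rhoj went the other way. Its biliary level was 127 CPM in D9, 174 in D10, 163 in D11 and 167 in D12 of Sox9con. In Sox9cKO it was 23.7 CPM in A11, 24.0 in A12, 32.4 in B1, 32.6 in B2 and 30 in B3. The wells did not overlap, and 0 of 20 pairs were higher in Sox9cKO. The sums were 1888 UMIs, 155 CPM (148 to 162), in Sox9con and 407 UMIs, 28.4 CPM (25.8 to 31.4), in Sox9cKO. The log2 ratio of Sox9cKO over Sox9con was -2.45 (-2.61 to -2.29), about 5.45-fold lower, and all 8 sublibraries were lower.

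At equal depth 16.2% (14.8 to 17.6) of Sox9con biliary cells had a Rhoj UMI and 4.97% (4.15 to 5.91) of Sox9cKO cells. Without thinning the shares were 22.8% and 8.45%. Cells with Rhoj often held several UMIs: of 768 such cells of Sox9con 346 had 2 or more, 192 had 3 or more and the highest had 38. Of 219 in Sox9cKO 77 had 2 or more. The mean over cells with a UMI was 2.46 and 1.86 UMIs.

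In endothelial-like cells Rhoj was not lower in Sox9cKO. It stood at 582 CPM (501 to 672) there and at 429 (366 to 500.2) in Sox9con, a log2 ratio of 0.44 (0.13 to 0.75). The wells ranged from 257 to 849 CPM and from 308 to 543 CPM, so they overlapped, and 13 of 20 pairs were higher in Sox9cKO. The deep cells of A12 and D9 that led the Lepr counts also held 25 of 184 and 27 of 164 Rhoj UMIs, and without them the levels were 529 and 406 CPM. At equal depth 50% (37.0 to 63.0) and 38.2% (27.2 to 50) of the cells had a UMI. Rhoj was 4.35 log2 units (4.09 to 4.61) higher in endothelial-like than in biliary cells of Sox9cKO and 1.47 (1.23 to 1.70) higher in Sox9con. Whether the 2 cell classes differ in their ratio between libraries was not tested.

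Endothelial RNA would bring 22.9 of the 1888 Rhoj UMIs in biliary cells of Sox9con, or 1.21%, and 34.8 of 407, or 8.56%, in Sox9cKO. The biliary level was 36.2% and 4.89% of the endothelial-like level. Biliary cells with 0 gate UMIs held 155 CPM in Sox9con and those with 1 to 4 held 172 (139 to 211). In Sox9cKO they held 27.0 (24.3 to 29.9) and 51.6 (37.5 to 69.3), higher in cells with gate UMIs. Just outside the endothelial gate, at 3 or 4 gate UMIs, 21 cells of Sox9cKO held 13 Rhoj, 4 Cd36 and 4 Lepr UMIs. Just inside it, at 5 or 6, 4 cells held 20, 0 and 0. In Sox9con 7 and 3 cells lay there, with 0 Rhoj UMIs in each.

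The biliary cells with Rhoj in Sox9con seldom held transcripts of Car4, Msln and Tff2. Of these 453 cells 8.39% (6.0 to 11.3) had a UMI of that group, against 30.9% (29.1 to 32.8) of the other 2350. By well the shares were 7.61 to 9.80% and 21.6 to 37.3%, without overlap. The group Adgrv1, Ctnna2 and Igsf11 was in 30.9% (26.7 to 35.4) against 14.0%, higher in all 4 wells. Ltf, Muc4 and Anxa10 were in 2.43% against 9.70%, lower in all 4. The plasma protein list was in 9.93% against 3.49%, higher in all 4. Of the Sox9con cells with a plasma protein UMI, 35.4% (45 of 127) held Rhoj, against 15.2% of those without.

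In Sox9con 8961 genes had at least 50 UMIs in thinned cells. Of these, 191 were at least 2-fold higher with Rhoj and 436 at least 2-fold lower. The genes with the highest ratio in the cells with Rhoj were Cpe, Ggct, Stat4, Msrb3, Adgrv1, Tox2, Gna14, Ahsg, Lmcd1 and Gc. Cpe, a carboxypeptidase that trims peptide hormones, was in 5.30% against 1.02%, with a log2 ratio of 2.65 (1.94 to 3.45). Adgrv1, a large adhesion receptor, was in 12.8% against 3.49%, and Msrb3, which repairs oxidized methionine, in 10.6% against 2.68%. Ahsg and Gc encode the plasma proteins fetuin A and vitamin D binding protein. Among the lowest were Slc28a2, Ndnf, Anxa1 and Gm35533. Ndnf, a secreted factor, was in 0.662% against 11.4%, and Anxa1, an annexin, in 0.442% against 10.2%. Slc28a2, a nucleoside carrier, was in 0 of 453, which allows up to 0.662%, against 1.11%. All of these genes held their direction at full counts with 2 or more Rhoj UMIs, where Cpe went to 1.93 and Ggct from 2.23 to 0.81.

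The 122 cells with Rhoj in Sox9cKO shared the first of these patterns, and the second in direction. Car4, Msln and Tff2 were in 8.20% (4.0 to 14.6) against 27.8% of the others, lower in all 5 wells. Adgrv1, Ctnna2 and Igsf11 were in 8.20% (4.0 to 14.6) against 4.76%, higher in 4 of 5 wells. That interval includes the share of the others. The plasma protein list went the opposite way from the Sox9con library, in 21.3% (14.4 to 29.6) against 37.4%, lower in all 5 wells. Muc6 and Bcl11a were in 9.02% (4.59 to 15.6) against 3.17%, higher in all 5 wells, while in Sox9con they were in 1.32% (0.488 to 2.86) against 3.91%, lower in all 4. Ltf, Muc4 and Anxa10, lower with Rhoj in Sox9con, were in 10.7% against 10.9% here. Dnah12, Mmp25 and Scin were in 9.84% (5.19 to 16.6) against 3.05%, higher in 4 of 5 wells. In Sox9con they were in 6.84% (4.70 to 9.57) against 4.09%, higher in all 4. Ly6a, Cd14 and Cxcl5 were in 58.1% (53.4 to 62.6) against 64.3% in Sox9con, lower in all 4. Here they were in 47.5% (38.4 to 56.8) against 56.6%, lower in all 5 wells, and that interval includes the share of the others. Ptgs2, Csf3 and Slc34a2 were in 10.7% (5.80 to 17.5) against 19.0% in Sox9cKO, lower in 4 of 5 wells. In Sox9con they were in 7.95% (5.63 to 10.8) against 6.72%, higher in 2 of 4 wells, and that interval includes the share of the others. In Sox9cKO, of 8376 genes tested, 271 were at least 2-fold higher in cells with Rhoj and 771 at least 2-fold lower. The named genes of Sox9cKO were Wnt5b, Gm16351, Slpi, Prkg1, Dennd3, Kcnip4, Fstl3, Krt80, 6030407O03Rik and Ttc28, and 0 of 10 were among those of Sox9con. With 10 names from 8376 genes in one library and 10 from 8961 in the other, a count of 0 does not stand out. Prkg1, a cGMP-dependent kinase, was in 26.2% against 13.1%, and Kcnip4, a potassium channel partner, in 29.5% against 14.2%. The 5 lowest were Ly6m, Slc35c1, Ahsg, Pja1 and Ttc26, in 0 of 122 cells, which allows up to 2.46%. The other cells held them in 2.57 to 5.28%. The exact interval of 0 of 122 reaches 2.98%, above the shares of Ly6m (2.57%) and Ahsg (2.79%) in the other cells. All 15 genes held their direction in cells with 2 or more Rhoj UMIs at full counts, but Pja1 went to -0.12, and Ttc28 went from 1.73 to 0.65, Wnt5b from 2.68 to 1.46 and Prkg1 from 1.90 to 1.38.

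Beside these values, endothelial reference genes summed to 77.9 CPM in the Rhoj cells of Sox9cKO and 35.4 in the others, and a gate UMI was in 4.92% (1.83 to 10.4) against 2.32%. In Sox9con the sums were 49.7 and 42.8 CPM. Prkg1 was at 1357 CPM in endothelial-like cells of Sox9cKO, so the part of endothelial RNA in its share was not tested. Sox9 was in 25.8% (21.9 to 30.1) of Sox9con cells with Rhoj and in 19.2% (17.7 to 20.9) of those without, and in 20.5% and 19.7% in Sox9cKO. Hepatocyte markers summed to 779 CPM with Rhoj and 1182 without in Sox9cKO, and to 1246 and 899.8 in Sox9con. Their part in the pattern was not tested.

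Among 27 other tested genes of small GTPases related to Rhoj and their partners, 2 were at least 2-fold higher in the Sox9cKO biliary cells and 1 at least 2-fold lower, again beside 2.17% and 1.79% of all tested genes. Their median log2 ratio was -0.00063. Rhob, a GTPase of endosomes, had 38.9 and 87.4 CPM, a log2 ratio of -1.17 (-1.32 to -1.02), lower in all pairs of wells. Pak3, a kinase that CDC42 activates, had 60.8 and 24.1 CPM (1.33), higher in 20 of 20. Plxnd1, the plexin D1 receptor, had 19.4 and 8.06 CPM (1.27), higher in 19 of 20. Its ligand Sema3e had 1387 and 1059.6 CPM (0.39). The closest relatives of Rhoj did not share its size of difference: Rhoq had 62.5 and 74.0 CPM (-0.24) and Cdc42 had 239 and 295 CPM (-0.30).

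Each of the 3 genes was in few biliary cells of Sox9cKO at equal depth (Cd36 9.95%, Lepr 3.06%, Rhoj 4.97%), so cells with 2 of them were few. In Sox9cKO 10 cells at equal depth held Cd36 and Lepr, 10 held Cd36 and Rhoj, and 4 held Lepr and Rhoj. Cd36 was in 8.20% (4.0 to 14.6) of cells with Rhoj and in 10% of those without. Lepr was in 4.10% (1.98 to 7.41) of cells with Cd36 and in 2.94% of those without. Rhoj was in 5.33% (1.47 to 13.1) of cells with Lepr and in 4.96% of those without. Each interval includes the share of the cells without. In Sox9con 0 of 453 Rhoj cells held Cd36, which allows up to 0.662%, against 0.383% of the other cells. Lepr was in 1 Rhoj cell (0.221%, 0.00559 to 1.22), against 0.511% of the other cells.

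Genes with a like pattern were ranked by Pearson correlation of log2(CPM + 10) over 11 points, the biliary cells of each of 9 wells and the endothelial-like cells of each library. The points share libraries and depth, and the measure is a description. For Cd36 the highest were Map4k4 (0.982), Nid1 (0.980), Pik3c2b (0.975), Igfbp4 (0.973) and Mast4 (0.967). Nid1, which encodes the basement membrane protein nidogen 1, had 97.6 and 1.97 CPM in biliary cells of Sox9cKO and Sox9con, and 269 and 411 CPM in endothelial-like cells. Igfbp4, which binds insulin-like growth factors, had 78.8 and 6.0 CPM, and 209 and 361 CPM. For Lepr the highest were Celf4 (0.989), Add3 (0.988), Adarb1 (0.981), Atrnl1 (0.981) and Pakap (0.978), among 297 genes over 0.9. For Rhoj they included Cbx6 (0.976), Txnip (0.967), Tshz2 (0.960) and Usp25 (0.959). Cbx6 had 13.2 and 31.8 CPM in biliary cells, and 60.1 and 62.8 CPM in endothelial-like cells.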

How the data were processed

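Per the labels' protocols, fixed cells from liver went through split-pool barcoding (the Evercode Whole Transcriptome kit), primed with both random hexamers and oligo(dT). The authors deposited whole-number UMI counts for each cell and gene, plus tables of genes and of cells. The genome build is GRCm39, per the submitters' processing notes; aligner, annotation release and the rule for reads of several genes are not given in the sources used here. In GENCODE vM21 (GRCm38), 0 genes overlap any of the 3 genes.

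Cells were kept with at least 500 genes, 1000 UMIs and at most 15% mitochondrial UMIs. Scrublet in scanpy 1.11.5 marked 3 of 6362 cells (0.0472%), too few for a working caller, and these were removed. Endothelial-like cells had 5 or more UMIs over 4 gate genes. Biliary cells had under 5, at least 3 UMIs over 15 biliary markers and under 5 over 10 mesenchymal and under 5 over 10 immune markers. Of the kept cells 33 and 15 fell in neither class. The 3 genes enter no class.

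Counts were summed per class and library to CPM. log2 ratios had 0.5 counts added at the mean total. Sums have exact Poisson, shares exact Clopper-Pearson and ratios exact conditional binomial intervals (95%), for counting error only. Equal depth means each cell thinned to 2000 UMIs. A count of 0 allows 3 counts, a limit below the upper end of the exact interval. With 1 library a group there is no test. Wells of 1 library were taken as a technical spread. The members, groups and lists were chosen with earlier results of these data known. Genes named for cells with a member had at least 50 UMIs in thinned cells, were the 10 highest and 5 lowest by log2 ratio and went the same way in each well with 10 or more such cells. Their intervals make no allowance for this choice of extremes. Such genes were named where a library had at least 30 such cells, which left out Cd36 and Lepr in Sox9con. The endothelial RNA estimate scales a member's UMIs per reference UMI in endothelial-like cells by the reference UMIs in biliary cells. edgeR 4.0.16 (TMM) and DESeq2 1.42.0 gave scaling factors for alternatives only. The ratio code was tested on simulated data. Sequences are from RefSeq. Of the genes these rules name, 2 are not reported here.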

Additional observations from a re-analysis of the deposited data

Results flagged for a closer look

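Rhoj had a log2 ratio of -2.45 in biliary cells (Sox9cKO over Sox9con), while in endothelial-like cells the ratio was 0.44, of the opposite sign. That small ratio was 0.16 with a gate of 3 UMIs and 0.70 in cells with under 3 biliary marker UMIs. All 20 pairs of wells were lower in biliary cells, but only 13 of 20 were higher in endothelial-like cells, and the difference between the classes was not tested.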

How the results depend on the processing

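No paired analysis was possible because each group has 1 library. The biliary ratios of all 3 genes kept their direction in each of 19 alternatives, at 4.39 to 5.19 for Cd36, 2.84 to 3.27 for Lepr and -2.56 to -2.10 for Rhoj on the log2 scale. Values outside the counting interval were 5.19 for Cd36 and -2.10 for Rhoj in cells thinned to 2000 UMIs, and for Rhoj -2.29 with DESeq2 factors and -2.22 as the mean of the CPM in each cell. Genes at least 2-fold higher were 607 with a minimum of 20 UMIs. Genes at least 2-fold lower were 268 with 100 UMIs, 749 with 20 UMIs and 93 with DESeq2 factors. The log2 ratio of endothelial-like over biliary cells in Sox9cKO moved to 1.62 (Cd36) and 4.71 (Rhoj) in endothelial-like cells with under 3 biliary marker UMIs, and to 3.41 (Lepr) and 4.0 (Rhoj) with a gate of 3 UMIs. Shares of biliary cells follow the thinned depth. Cd36 in Sox9cKO had 4.94% at 1000 UMIs, 14.6% at 3000 and 20.8% unthinned, and in Sox9con 0.792% at 3000 and 0.890% unthinned. Lepr in Sox9cKO had 1.66%, 4.10% and 6.45%, and in Sox9con 0.148% at 1000 UMIs. Rhoj in Sox9cKO had 2.35% at 1000 UMIs and 8.45% unthinned, and in Sox9con 10.9%, 19.4% and 22.8%. Endothelial-like shares of Cd36 at 1000 UMIs were 9.09% (Sox9cKO) and 10.8% (Sox9con). In cells with 2 or more Lepr UMIs, Vrk3 went to -0.70, Gpatch1 to -0.41, Cep128 to -0.38 and Brpf1 to 0.19. The causes of these moves were not tested.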
